A study of Mus musculus with 12 samples.

Results

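The epithelial sodium channel (ENaC) and the aldosterone pathway that controls it were followed through 8 genes: the channel subunits Scnn1a, Scnn1b and Scnn1g, the receptor gene Nr3c2, the enzyme gene Hsd11b2, the kinase gene Sgk1, the ubiquitin ligase gene Nedd4l and the pump regulator Fxyd4. The members were chosen by gene symbol, matched through the Entrez identifier of each row of the count table, and all 8 of them were present among its 13124 genes. RNA sequencing had been run on 12 whole kidneys of male C57BL/6 mice, flushed with saline and taken 24 h after surgery, with 3 kidneys from separate mice in each of 4 groups. Kidneys of 3 groups had undergone unilateral warm ischaemia-reperfusion injury (IRI), in which the renal blood supply is stopped and then restored. The mice of the first group had received VR81, which binds G-CSFR, the receptor for granulocyte colony-stimulating factor (kidneys 7 to 9). The second had received BB5.1, a monoclonal antibody against complement protein C5 (kidneys 10 to 12), and the third an isotype control antibody (kidneys 4 to 6), in each case 24 h before IRI. The fourth was sham operated, untreated and given no antibody (kidneys 1 to 3), so a comparison of isotype with sham kidneys joins the injury with the antibody injection. Whether the operated kidney was the one sequenced is not stated in the labels.

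Aldosterone enters principal cells of the distal nephron and collecting duct and binds the mineralocorticoid receptor, the product of Nr3c2. The enzyme made from Hsd11b2 inactivates glucocorticoids in the same cells and so keeps the receptor for aldosterone. The activated receptor, and also the glucocorticoid receptor, induces Sgk1, whose kinase phosphorylates the ubiquitin ligase Nedd4-2 (Nedd4l) and stops it from binding and removing ENaC at the apical membrane. The alpha, beta and gamma subunits (Scnn1a, Scnn1b, Scnn1g) form the sodium pore, and sodium leaves the cell through the basolateral sodium pump, whose affinity for sodium is raised by the small membrane protein of Fxyd4.

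The site through which the ligase recognises the channel is a PY motif near the end of each subunit, and its coding sequence is shown because it links the ligase gene to the subunit genes whose levels follow. The coding sequences came from GENCODE vM21 (GRCm38), with the 4 motif codons (proline, proline, any residue, tyrosine) in capitals and 3 codons on either side.
Scnn1a: acagcccctCCACCTGCCTATgctacccta
Scnn1b: gggactccaCCCCCCAACTATgactccctg
Scnn1g: ggcacaccaCCCCCCAGATACaataccttg
Each subunit held exactly 1 such run of codons in frame. It began at codon 671 of 700 in Scnn1a (chromosome 6), at codon 615 of 638 in Scnn1b and at codon 630 of 655 in Scnn1g (both chromosome 7).

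Promoter windows, 250 bases before to 50 bases after an annotated start, were taken from RefSeq (GRCm38.p6) and read for the corticosteroid receptor element, which the mineralocorticoid and glucocorticoid receptors share. The windows of Sgk1, Scnn1b and Scnn1g were chosen after the kinase gene and these subunit genes were seen to move in opposite directions in isotype kidneys. What part the element had in these changes was not tested. Capitals mark the hexamer AGAACA or its reverse complement TGTTCT.
Sgk1, chr10:21993640-21993939, plus strand: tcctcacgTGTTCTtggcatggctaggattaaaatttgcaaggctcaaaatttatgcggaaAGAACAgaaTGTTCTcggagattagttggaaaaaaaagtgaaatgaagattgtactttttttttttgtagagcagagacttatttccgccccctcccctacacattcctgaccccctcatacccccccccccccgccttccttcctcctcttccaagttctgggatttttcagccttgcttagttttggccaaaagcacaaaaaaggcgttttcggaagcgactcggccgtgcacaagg
Scnn1b, chr7:121864788-121865087, plus strand: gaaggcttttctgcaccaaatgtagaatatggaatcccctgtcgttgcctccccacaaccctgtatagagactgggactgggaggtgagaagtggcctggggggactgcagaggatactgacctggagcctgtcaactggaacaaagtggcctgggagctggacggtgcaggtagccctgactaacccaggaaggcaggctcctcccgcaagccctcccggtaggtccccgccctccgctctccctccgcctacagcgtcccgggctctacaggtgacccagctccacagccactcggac
Scnn1g, chr7:121734229-121734528, plus strand: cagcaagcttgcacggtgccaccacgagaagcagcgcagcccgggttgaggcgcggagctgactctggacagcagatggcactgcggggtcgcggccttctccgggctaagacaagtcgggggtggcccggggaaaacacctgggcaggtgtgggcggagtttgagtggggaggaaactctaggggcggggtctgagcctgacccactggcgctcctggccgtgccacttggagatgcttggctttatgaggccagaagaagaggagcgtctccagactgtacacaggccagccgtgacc
The Sgk1 window held 3 such hexamers, which began 242, 189 and 180 bases before its start, base 21993890. The last of these pairs with its neighbour as AGAACA, 3 bases of any kind and TGTTCT, a full palindrome that occurred in 3 of 32851 windows of this length (0.00913%), those of Sgk1, Acnat2 and Gm35041. The hexamer alone, on either strand, was in 6233 of the 32851 windows (19%), and a window with the palindrome is counted among these. Sgk1 has 6 annotated windows, each for its own start. Of these 3 held a hexamer and 1, the one shown, held the palindrome. The Sgk1 window farthest along the strand, chr10:21994416-21994715, held 0 hexamers. The single windows of Scnn1b, Scnn1g, Nr3c2 and Fxyd4 also held 0. Of the 8 members 5 had a window. Scnn1a, Hsd11b2 and Nedd4l had none.

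Between 13200930 and 16324215 reads were counted per kidney, and members were covered by 185 (Nr3c2) to 4507 (Sgk1) reads in a kidney. Levels are given as CPM, counts divided by library size, with TMM factors that bring the bulk of genes to the same level in each library. Differences were tested with edgeR's quasi-likelihood test in 1 fit over all 12 libraries. Calls were made where p, adjusted by the Benjamini-Hochberg (BH) method over all 13124 genes, was below 0.05, and log2 changes carry a standard error (SE). Whole-kidney identity was plain in each group: all 6 proximal tubule, 5 thick ascending limb, 6 principal cell, 6 intercalated cell and 5 podocyte markers were counted in each kidney. The 8 tubule injury markers summed to 1496 to 11140 CPM in anti-G-CSFR, 1396 to 13020 CPM in anti-C5, 31340 to 37250 CPM in isotype and 1233 to 2077 CPM in sham kidneys. Kidneys 9 (anti-G-CSFR) and 11 (anti-C5) gave the upper ends of their groups.

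In isotype kidneys the pathway was shifted against sham kidneys. The channel genes Scnn1b and Scnn1g, the receptor gene Nr3c2 and the enzyme gene Hsd11b2 fell, while the kinase gene Sgk1 rose. That is 4 members lower and 1 higher of 8, where 30.7% of all genes were lower and 32.1% higher by the same rule. The median log2 change of the 8 members was -0.40, against 0.03 over all genes tested. No member was called between sham kidneys and kidneys given either antibody, though nearness to the sham level varied. Hsd11b2 averaged 156 CPM in each antibody group, against 58.1 CPM in isotype and 176.9 CPM in sham kidneys. In anti-C5 kidneys Scnn1b averaged 41.3 CPM, against 36.8 CPM in isotype and 50.2 CPM in sham kidneys. Nedd4l averaged 83.6 CPM there, below both isotype (128.2 CPM) and sham kidneys (112.1 CPM). Anti-G-CSFR kidneys had 4 members higher and 1 lower than isotype kidneys, where 31.5% of all genes were higher and 32% lower, with a median log2 change of 0.36 against -0.02 over all genes. Anti-C5 kidneys likewise had 4 members higher and 1 lower than isotype kidneys, where 30.5% of all genes were higher and 29.8% lower, with medians of 0.36 and -0.01. The test for any difference among the 4 groups called 5 of 8 members and 61% of all genes. It did not call Scnn1a, Sgk1 or Fxyd4 (edgeR adjusted p = 0.592, 0.0889 and 0.102). The isotype kidneys enter all 3 of these comparisons between pairs of groups, so the changes share those libraries. With so many genes called, the members' counts do not set the pathway apart from other genes. Groups lying wholly apart were also common. Levels did not overlap between isotype and sham kidneys for 69.2% of all genes and 4 of 8 members. Against isotype kidneys this held for 67.2% and 5 of 8 in anti-G-CSFR and 62.7% and 6 of 8 in anti-C5 kidneys. Against sham kidneys it held for 18.4% and 3 of 8 in anti-G-CSFR and 18% and 3 of 8 in anti-C5 kidneys.

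Comparisons without the isotype group called 0 members. Between anti-G-CSFR and anti-C5 kidneys edgeR called 0% of genes, with 207 genes and 0 members at an unadjusted p below 0.05. DESeq2 called 2 genes there and limma-voom 0. Between anti-G-CSFR and sham kidneys edgeR also called 0%, with 778 genes and 1 member at an unadjusted p below 0.05, and DESeq2 called 1 gene and limma-voom 0. The edgeR fit on those 6 libraries alone called 43 genes there, with 1608 genes and 2 members at an unadjusted p below 0.05, and it called 0 genes in each of the other comparisons without the isotype group. Between anti-C5 and sham kidneys the share was again 0%, with 1487 genes and 2 members at an unadjusted p below 0.05, and DESeq2 called 25 genes and limma-voom 0. At that unadjusted threshold DESeq2 had 1548 genes and 3 members there. The edgeR fit on the 6 anti-C5 and sham libraries alone had 1378 genes and 4 members. None of the genes called after adjustment in these comparisons was a member.

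**Figure D1:**
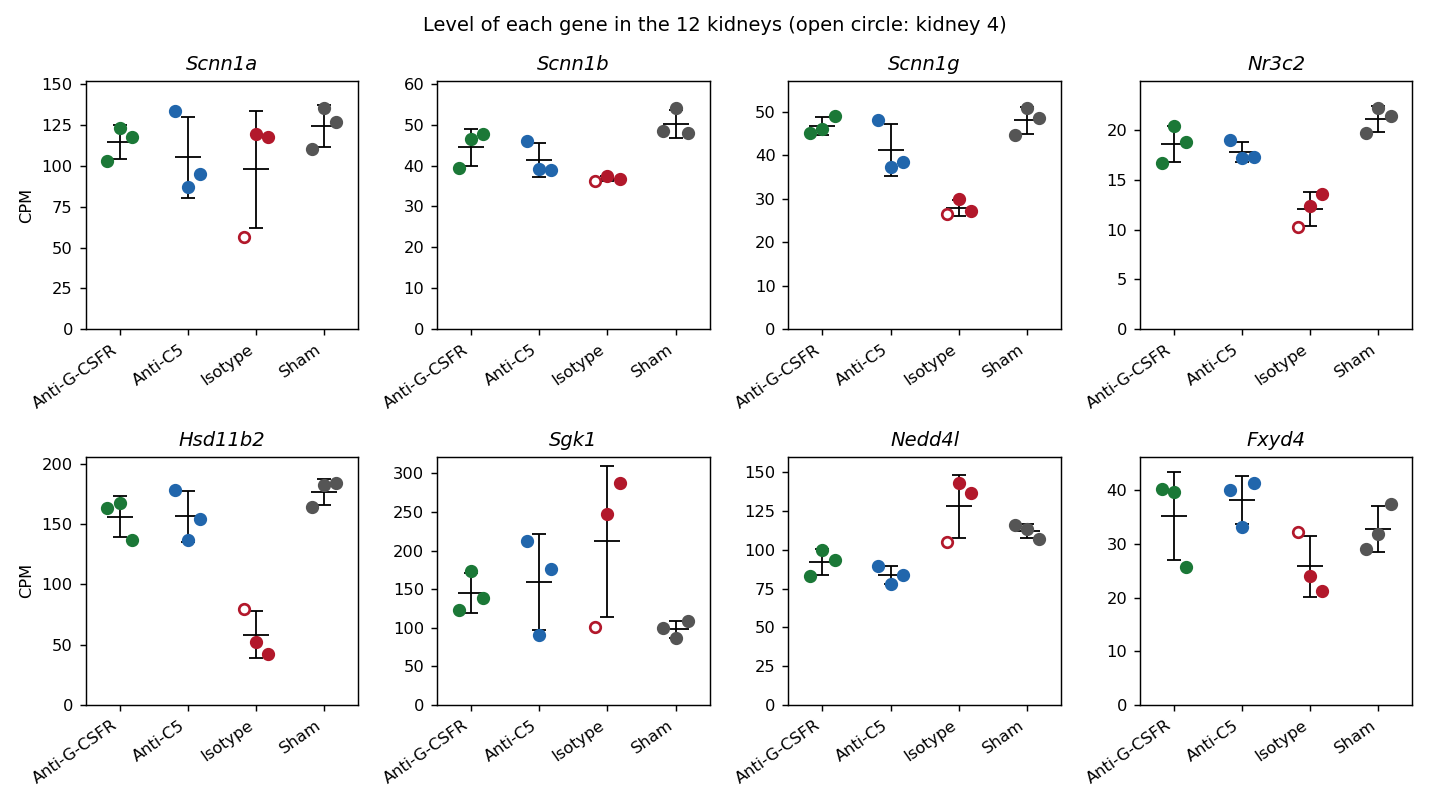
Level of each of the 8 members in every kidney, in CPM on a linear axis from 0, by group; horizontal lines mark the group mean, whiskers 1 SD and the open circle kidney 4. Hsd11b2 sits between 42.0 and 79.7 CPM in isotype kidneys and at 137 CPM or more in the other groups, while the isotype points of Scnn1a and Sgk1 are split by kidney 4.

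Scnn1g, the gamma subunit (Entrez 20278, GRCm38 chromosome 7, 121734479 to 121768475, plus strand), was the subunit with the largest change. Its level was 45.0, 46.1 and 48.9 CPM in anti-G-CSFR kidneys, 48.1, 37.2 and 38.5 CPM in anti-C5 kidneys, 26.6, 29.9 and 27.1 CPM in isotype kidneys, and 44.6, 50.9 and 48.4 CPM in sham kidneys. The isotype kidneys lay below all 9 others, and the other groups overlapped. Scnn1g fell by 0.79 on the log2 scale in isotype against sham kidneys (SE 0.109, edgeR adjusted p = 8.73e-05). It was higher than in isotype kidneys by 0.75 in anti-G-CSFR kidneys (SE 0.109, adjusted p = 0.000138) and by 0.57 in anti-C5 kidneys (SE 0.109, adjusted p = 0.000943).

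Scnn1b, the beta subunit (Entrez 20277, chromosome 7, 121865038 to 121918514, plus strand), fell in isotype against sham kidneys and was higher in anti-G-CSFR than in isotype kidneys. It was counted at 39.4, 46.5 and 47.7 CPM in anti-G-CSFR kidneys, 46.1, 39.1 and 38.8 CPM in anti-C5 kidneys, 36.3, 37.4 and 36.8 CPM in isotype kidneys, and 48.5, 54.2 and 48.0 CPM in sham kidneys. Every IRI kidney, with or without a blocking antibody, was below every sham kidney. The fall in isotype against sham kidneys was -0.45 on the log2 scale (SE 0.102, edgeR adjusted p = 0.00243), and the rise in anti-G-CSFR against isotype kidneys was 0.27 (SE 0.102, adjusted p = 0.0341). That rise was no longer called without any 1 of kidneys 4, 5, 6, 8 or 9 (adjusted p = 0.0612, 0.0661, 0.0754, 0.106 and 0.081). In anti-C5 kidneys the difference from isotype kidneys was 0.17 (95% interval -0.06 to 0.39, adjusted p = 0.176). Scaled by library totals alone, Scnn1b was called in none of these (-0.25, 0.07 and -0.01, adjusted p = 0.0801, 0.638 and 0.929). The gene overlaps Cog7 on the opposite strand, and since the strand setting of the counting is not given, reads of the pair cannot be told apart.

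Scnn1a, the alpha subunit (Entrez 20276, chromosome 6, 125320659 to 125344943, plus strand), was called in no comparison. Its level was 103, 123 and 118 CPM in anti-G-CSFR kidneys, 134, 87.2 and 95.2 CPM in anti-C5 kidneys, 56.5, 119.7 and 118 CPM in isotype kidneys, and 110.4, 136 and 127 CPM in sham kidneys. Kidney 4 had less than any other kidney, and the other isotype kidneys lay inside the range of the sham group. The log2 difference of isotype from sham kidneys was -0.35 (95% interval -0.88 to 0.19, edgeR adjusted p = 0.237), and -0.07 without kidney 4 (adjusted p = 0.735). The differences from isotype kidneys were 0.23 in anti-G-CSFR (adjusted p = 0.431) and 0.11 in anti-C5 kidneys (adjusted p = 0.723), and both turned negative without kidney 4, at -0.05 and -0.17.

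The subunits can be set against each other by length-corrected counts, reads per kilobase of exon. The beta to gamma ratio was 1.08 ± 0.0787 in anti-G-CSFR kidneys, 1.14 ± 0.0540 in anti-C5 kidneys, 1.51 ± 0.0723 in isotype kidneys and 1.19 ± 0.0559 in sham kidneys (SD, n = 3 each). The lowest isotype kidney, at 1.42, was above the highest kidney of any other group, at 1.23. Across the 4 groups this ratio differed by an exact permutation test over 369600 divisions of the kidneys (p = 0.00409, BH-adjusted over 6 ratios 0.0245, where the smallest possible p is 6.49e-05). Reads of Cog7, which overlaps Scnn1b on the opposite strand, may be part of the beta counts and so of the ratios that use them. For gamma to alpha the values were 0.564 ± 0.0427, 0.548 ± 0.0466, 0.437 ± 0.184 and 0.535 ± 0.0212 in anti-G-CSFR, anti-C5, isotype and sham kidneys (exact adjusted p = 0.278), and without kidney 4 the adjusted p was 0.0305. For beta to alpha they were 0.609 ± 0.0233, 0.628 ± 0.0821, 0.663 ± 0.299 and 0.636 ± 0.0483 in the same groups (exact adjusted p = 0.998). Kidney 4 held the top of the isotype range in both, at 0.649 for gamma to alpha and 1.01 for beta to alpha, and the lowest isotype kidneys were at 0.318 and 0.490.

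**Figure D2:**
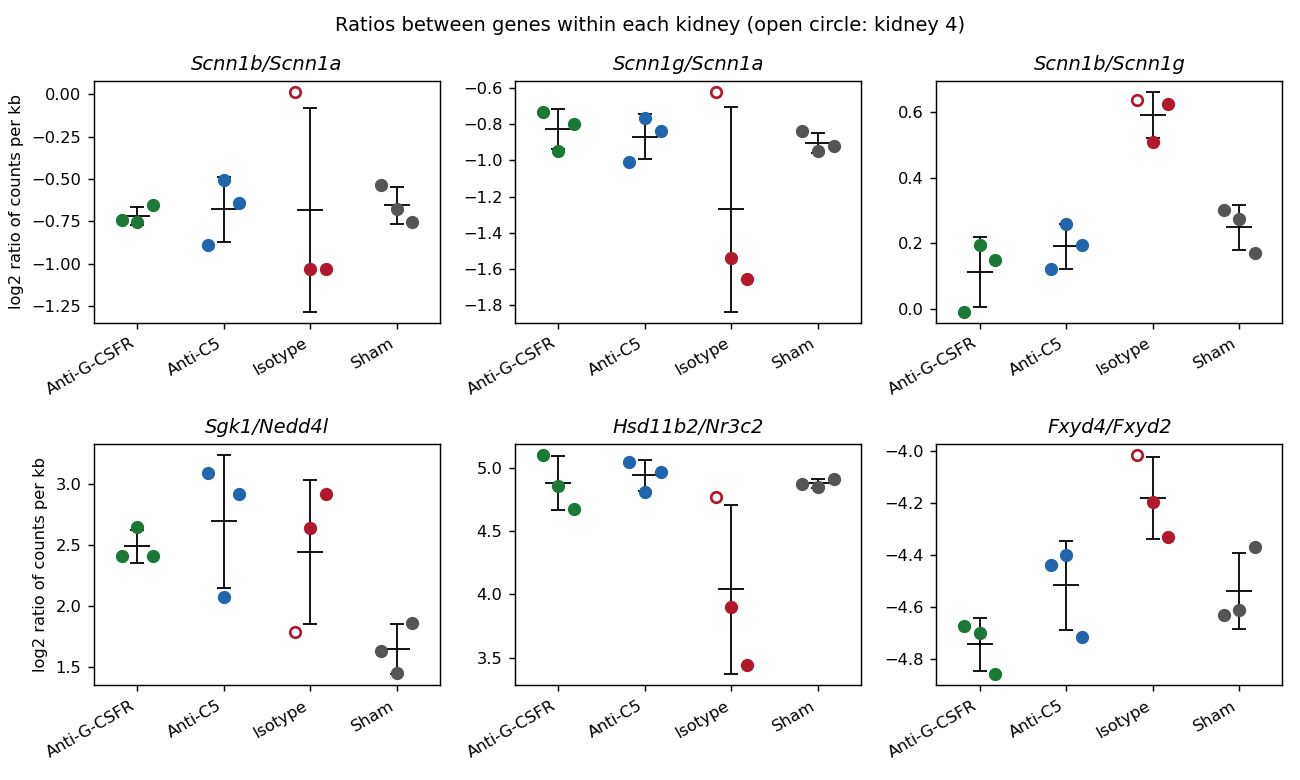
Ratios of length-corrected counts between members in each kidney, by group, as log2 values, with a line at the group mean, whiskers of 1 SD and an open circle for kidney 4. The beta to gamma ratio (Scnn1b to Scnn1g) of the isotype kidneys runs from 1.42 to 1.55 before the log2 step, above every other kidney.

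Hsd11b2, the glucocorticoid-inactivating enzyme (Entrez 15484, chromosome 8, 105518755 to 105523988, plus strand), was the member with the largest fall in isotype kidneys. It was counted at 164, 168 and 137 CPM in anti-G-CSFR kidneys, 178, 137 and 154 CPM in anti-C5 kidneys, 79.7, 52.5 and 42.0 CPM in isotype kidneys, and 164.5, 182 and 184 CPM in sham kidneys. All isotype kidneys lay below all 9 others, and each antibody group reached into the sham range. Against sham kidneys the isotype level was 3.04-fold lower, a log2 change of -1.61 (SE 0.199, edgeR adjusted p = 4.15e-05). The level was higher than in isotype kidneys by 1.43 on the log2 scale in both anti-G-CSFR kidneys (SE 0.198, adjusted p = 9.84e-05) and anti-C5 kidneys (SE 0.198, adjusted p = 0.000123). In bulk kidney RNA, fewer principal cells and less Hsd11b2 RNA in each of them cannot be told apart, and the same limit applies to the other members that fell.

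Nr3c2, the mineralocorticoid receptor gene (Entrez 110784, chromosome 8, 76899442 to 77245012, plus strand), had the lowest counts of the 8. The kidneys held 16.7, 20.4 and 18.8 CPM in the anti-G-CSFR group, 19.0, 17.1 and 17.2 CPM in the anti-C5 group, 10.3, 12.4 and 13.6 CPM in the isotype group, and 19.7, 22.3 and 21.4 CPM in the sham group. Isotype kidneys were again below all others, and every anti-C5 kidney was below every sham kidney. Nr3c2 fell by 0.81 on the log2 scale in isotype against sham kidneys (SE 0.122, edgeR adjusted p = 0.000153), and was higher than in isotype kidneys by 0.63 in anti-G-CSFR (SE 0.123, adjusted p = 0.000927) and by 0.56 in anti-C5 kidneys (SE 0.123, adjusted p = 0.00212). Its locus overlaps small annotated genes on both strands (Gm10649, Gm24838 and Gm23260).

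The enzyme to receptor ratio (Hsd11b2 to Nr3c2, length-corrected) averaged 29.7 ± 4.46 in anti-G-CSFR kidneys, 30.9 ± 2.57 in anti-C5 kidneys, 17.7 ± 8.53 in isotype kidneys and 29.5 ± 0.677 in sham kidneys (SD, n = 3 each). Kidney 4 had 27.3 and the lowest isotype kidney 10.9. The exact permutation test gave p = 0.0355 and a BH-adjusted p of 0.0709, which misses the threshold with kidney 4 and passes it without (adjusted p = 0.0305).

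Sgk1, the aldosterone-induced kinase gene (Entrez 20393, chromosome 10, 21882184 to 21999903, plus strand), was the member that rose in isotype kidneys. The counts came to 123, 173 and 139 CPM in anti-G-CSFR kidneys, 212, 91.1 and 176 CPM in anti-C5 kidneys, 100.4, 248 and 287 CPM in isotype kidneys, and 99.7, 86.4 and 108 CPM in sham kidneys. Kidneys 5 and 6 were the highest of the 12, while kidney 4 lay inside the sham range, so isotype and sham groups overlapped. The fitted rise in isotype against sham kidneys was 2.16-fold, a log2 change of 1.11 (SE 0.357, edgeR adjusted p = 0.0173). It was 1.45 without kidney 4 (adjusted p = 0.00122), and was no longer called without kidney 2, 5 or 6 (adjusted p = 0.0607, 0.059 and 0.0842). Against isotype kidneys the log2 differences were -0.55 in anti-G-CSFR (95% interval -1.32 to 0.23, adjusted p = 0.195) and -0.41 in anti-C5 kidneys (SE 0.353, adjusted p = 0.335). Without kidney 4 both were called, at -0.88 (adjusted p = 0.0177) and -0.74 (adjusted p = 0.0396). With all 12 kidneys, the test for any difference among the 4 groups did not call Sgk1 (edgeR adjusted p = 0.0889).

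Nedd4l, the ligase that binds the PY motifs shown for the subunits (Entrez 83814), was not called in isotype against sham kidneys but was lower under both antibodies. It stood at 83.0, 99.7 and 93.8 CPM in anti-G-CSFR kidneys, 89.6, 77.8 and 83.5 CPM in anti-C5 kidneys, 104.8, 143 and 137 CPM in isotype kidneys, and 116, 114 and 107 CPM in sham kidneys. All 6 kidneys from antibody-blocked mice were below all isotype and all sham kidneys. Nedd4l fell by 0.48 on the log2 scale in anti-G-CSFR against isotype kidneys (SE 0.121, edgeR adjusted p = 0.00467) and by 0.62 in anti-C5 against isotype kidneys (SE 0.121, adjusted p = 0.0011). Isotype differed from sham kidneys by 0.19 (SE 0.120, adjusted p = 0.18), and was called without kidney 4 (0.32, adjusted p = 0.0144) or with library totals as the scaling (0.39, adjusted p = 0.0161). Genes annotated on the opposite strand (A330084C13Rik and AC102333.1) overlap it.

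The length-corrected ratio of kinase to ligase (Sgk1 to Nedd4l) was 5.64 ± 0.538 in anti-G-CSFR kidneys, 6.78 ± 2.27 in anti-C5 kidneys, 5.75 ± 2.099 in isotype kidneys and 3.16 ± 0.459 in sham kidneys (SD, n = 3 each). Kidney 4, at 3.45, was the only IRI kidney inside the sham range of 2.74 to 3.65. The 4 groups did not pass the exact permutation test (p = 0.0784, BH-adjusted 0.118) and did so without kidney 4 (adjusted p = 0.0355).

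Fxyd4, which encodes a modulator of the sodium pump also known as CHIF (Entrez 108017, chromosome 6, 117933559 to 117937692, minus strand), was called in anti-C5 against isotype kidneys alone. It was counted at 40.2, 39.7 and 25.7 CPM in anti-G-CSFR kidneys, 40.1, 33.1 and 41.3 CPM in anti-C5 kidneys, 32.2, 24.1 and 21.2 CPM in isotype kidneys, and 29.0, 31.9 and 37.4 CPM in sham kidneys. Only the anti-C5 and isotype groups did not overlap. The test for any difference among the 4 groups did not call Fxyd4 (edgeR adjusted p = 0.102). Fxyd4 was higher in anti-C5 than in isotype kidneys by 0.56 on the log2 scale (SE 0.193, edgeR adjusted p = 0.0248), a call lost without any 1 of kidneys 5, 6, 10 or 12 (adjusted p = 0.0769, 0.0993, 0.0689 and 0.0767) or with library totals as the scaling (0.38, adjusted p = 0.0778). The difference of anti-G-CSFR from isotype kidneys was 0.45 (SE 0.194, adjusted p = 0.0608), and it was called without kidney 9 (0.65, adjusted p = 0.00782) or kidney 4 (0.64, adjusted p = 0.0124). Isotype differed from sham kidneys by -0.34 (SE 0.193, adjusted p = 0.141), and by -0.53 with a call without kidney 4 (adjusted p = 0.0291).

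**Figure D3:**
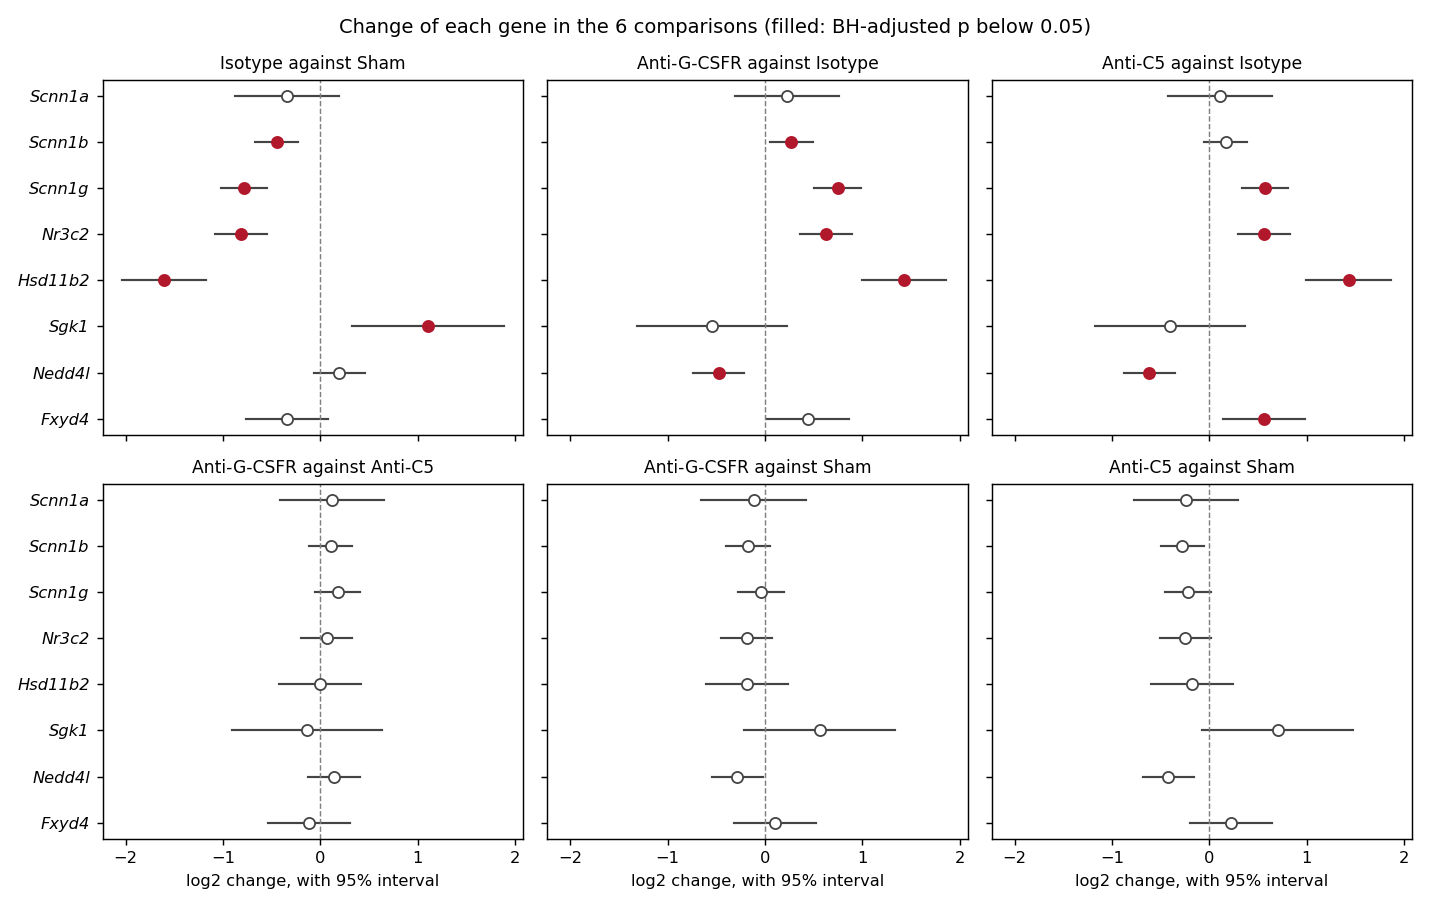
Log2 change of each of the 8 members with its 95% interval in the comparisons of the groups, filled where the BH-adjusted p over all genes is below 0.05. Hsd11b2 lies at -1.61 in isotype against sham and at 1.43 in each antibody group against isotype, and no point is filled in the comparisons without the isotype group.

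Between anti-G-CSFR and anti-C5 kidneys the 8 log2 differences ran from -0.14 (Sgk1) to 0.18 (Scnn1g), each with an edgeR adjusted p of 1. Their 95% intervals were narrowest for Scnn1b, at -0.12 to 0.33, and widest for Sgk1, at -0.91 to 0.63. Differences of a size inside these intervals remain compatible with the data, and the intervals are not limits of detection. Against sham kidneys, Nedd4l was the member farthest from the sham level in relation to its error. Its log2 difference was -0.28 in anti-G-CSFR (95% interval -0.55 to -0.02, unadjusted p = 0.0371, edgeR adjusted p = 0.807) and -0.42 in anti-C5 kidneys (95% interval -0.69 to -0.16, unadjusted p = 0.00444, adjusted p = 0.371). For Scnn1b the difference from sham kidneys was -0.17 in anti-G-CSFR (95% interval -0.40 to 0.05) and -0.28 in anti-C5 kidneys (95% interval -0.50 to -0.06, unadjusted p = 0.0177, edgeR adjusted p = 0.371). Hsd11b2 differed from sham kidneys by -0.18 in both antibody groups, with 95% intervals of -0.60 to 0.24. Sgk1 differed by 0.56 in anti-G-CSFR (95% interval -0.21 to 1.34), where all 3 kidneys were above all sham kidneys, and by 0.70 in anti-C5 kidneys (95% interval -0.07 to 1.48).

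Per kilobase of exon, the order of the members could be compared within a group. In sham kidneys Hsd11b2 was highest at 96.1 ± 5.86 CPM per kb (SD, n = 3), followed by Scnn1a at 30.1 ± 3.12. Sgk1 at 20.02 ± 2.25 and Scnn1b at 19.1 ± 1.31 did not differ beyond their spread, nor did Fxyd4 at 16.7 ± 2.18 and Scnn1g at 16.1 ± 1.06. Nedd4l at 6.35 ± 0.265 and Nr3c2 at 3.26 ± 0.201 were lowest. The isotype kidneys had another order, with Sgk1 at 43.2 ± 20.1 CPM per kb, Hsd11b2 at 31.6 ± 10.6 and Scnn1a at 23.7 ± 8.69 overlapping in their spread. Below them came Scnn1b at 13.99 ± 0.207 and Fxyd4 at 13.2 ± 2.93, then Scnn1g at 9.30 ± 0.594, Nedd4l at 7.26 ± 1.16 and Nr3c2 at 1.86 ± 0.257. The length is that of all annotated exons joined, 17.7 kb for Nedd4l, and a transcript that uses fewer exons has a higher level than this.

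Cell markers moved with these results. Of 6 principal cell markers, 4 fell in isotype against sham kidneys and 0 rose (median log2 change -0.70, against 0.03 over all genes, of which 30.7% fell), and the summed level of the 6 was 430.1 to 511 CPM in anti-G-CSFR, 356 to 509.6 CPM in anti-C5, 204 to 321 CPM in isotype and 426 to 497 CPM in sham kidneys, with 0 markers at 0 counts. Avpr2, the vasopressin receptor gene, averaged 30.9 ± 9.53 CPM in anti-G-CSFR, 30.2 ± 8.90 CPM in anti-C5, 7.50 ± 1.43 CPM in isotype and 33.0 ± 1.73 CPM in sham kidneys (SD, n = 3 each), and its fall in isotype against sham kidneys was -2.13 on the log2 scale (SE 0.258, edgeR adjusted p = 3.58e-05). The water channel gene Aqp2 fell by 0.51 (adjusted p = 0.0313) and Aqp3 by 0.90 (adjusted p = 0.00012). Gata3 and Elf5, transcription factor genes of these cells named after their values were seen, had changes of -0.34 (adjusted p = 0.2) and -0.50 (adjusted p = 0.0661). Other segments moved too: all 6 proximal tubule markers fell in isotype against sham kidneys, and 4 of 5 thick ascending limb markers and 2 of 6 intercalated cell markers fell, with 1 intercalated marker higher. Of 5 podocyte markers, 1 fell and 1 rose. Of all genes 30.7% fell and 32.1% rose. Against isotype kidneys, 4 of the 5 podocyte markers were lower and 0 higher in each antibody group. Their medians were -0.44 in anti-G-CSFR and -0.63 in anti-C5 kidneys, where 32% and 29.8% of all genes were lower. In both, 6 of 6 proximal tubule, 4 of 5 thick ascending limb, 4 of 6 principal cell and 2 of 6 intercalated cell markers were higher, with 31.5% and 30.5% of all genes. What part cell numbers had in the members' changes was not tested.

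The proteases that cut ENaC and their inhibitors divided. Of 10 genes listed, 9 were measured, and 3 rose and 2 fell in isotype against sham kidneys (median log2 change 0.13, against 0.03 over all genes, of which 32.1% rose and 30.7% fell). Prss8, the gene of prostasin, which activates the channel by cleaving the gamma subunit, averaged 333 ± 26.2 CPM in anti-G-CSFR, 316 ± 25.0 CPM in anti-C5, 107.5 ± 17.2 CPM in isotype and 330.2 ± 12.4 CPM in sham kidneys (SD, n = 3 each). Its fall in isotype against sham kidneys was -1.62 on the log2 scale (SE 0.127, edgeR adjusted p = 3.73e-06), and it was 1.63 higher in anti-G-CSFR and 1.55 higher in anti-C5 than in isotype kidneys (adjusted p = 5.11e-06 and 8e-06). St14, the gene of matriptase, rose by 0.97 in isotype against sham kidneys (adjusted p = 4.04e-05), and Serpine2, a protease inhibitor gene, rose by 1.39 (adjusted p = 0.000589). Furin, whose product cuts the alpha and gamma subunits before they reach the membrane, had a change of 0.01 (SE 0.0902, adjusted p = 0.916). Against isotype kidneys, 2 of the 9 were higher and 3 lower in each antibody group. Of all genes, 31.5% were higher and 32% lower in anti-G-CSFR kidneys, and 30.5% higher and 29.8% lower in anti-C5 kidneys.

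Among 18 genes that act on Sgk1 kinase or on the ubiquitination of the channel, 8 rose and 7 fell in isotype against sham kidneys (median log2 change 0.09), where 32.1% of all genes rose and 30.7% fell (median 0.03). Usp2, whose deubiquitinase has been reported to remove ubiquitin from ENaC, averaged 112 ± 16.9 CPM in anti-G-CSFR, 111 ± 23.3 CPM in anti-C5, 27.6 ± 8.11 CPM in isotype and 112 ± 12.0 CPM in sham kidneys (SD, n = 3 each). It fell by 2.02 on the log2 scale in isotype against sham kidneys (SE 0.213, edgeR adjusted p = 1.46e-05). Of the kinase relatives of Sgk1, Sgk2 fell by 0.94 (SE 0.116, adjusted p = 4.01e-05) and Sgk3 rose by 0.27 (SE 0.0952, adjusted p = 0.029). Nedd4, the ligase closest to Nedd4l, rose by 0.36 in isotype against sham kidneys (adjusted p = 0.0416) and fell by 0.53 in anti-G-CSFR and 0.51 in anti-C5 against isotype kidneys (adjusted p = 0.00675 and 0.00848). The deubiquitinase gene Usp8 fell by 0.53 and Wnk1, a kinase gene of the distal salt pathway, fell by 0.72 in isotype against sham kidneys (adjusted p = 0.00067 and 0.00116). Against isotype kidneys, 6 of the 18 were higher and 7 lower in anti-G-CSFR kidneys (median -0.17), where 31.5% of all genes were higher and 32% lower (median -0.02). In anti-C5 kidneys 6 were higher and 5 lower (median -0.13), where 30.5% of all genes were higher and 29.8% lower (median -0.01).

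Most genes of salt and potassium transport next to ENaC fell. Of 10 genes, 7 fell and 1 rose in isotype against sham kidneys (median log2 change -1.05), where 30.7% of all genes fell and 32.1% rose (median 0.03). Likewise 7 were higher and 1 lower than in isotype kidneys in each antibody group (medians 1.01 in anti-G-CSFR and 0.87 in anti-C5, against -0.02 and -0.01 over all genes, of which 31.5% and 30.5% were higher and 32% and 29.8% lower). Kcnj1, the gene of ROMK, the channel that secretes potassium as ENaC takes up sodium, averaged 413 ± 95.7 CPM in anti-G-CSFR, 400.2 ± 104.7 CPM in anti-C5, 109 ± 7.13 CPM in isotype and 432 ± 40.9 CPM in sham kidneys (SD, n = 3 each). It fell by 1.98 on the log2 scale in isotype against sham kidneys (SE 0.213, edgeR adjusted p = 1.7e-05). Klhl3, whose product targets WNK kinases for degradation, fell by 2.36, and the basolateral potassium channel genes Kcnj16 and Kcnj10 fell by 1.90 and 1.33 (adjusted p = 8.17e-06, 1.84e-06 and 8.49e-06). Slc12a3, the thiazide-sensitive cotransporter gene upstream of ENaC, fell by 0.77 (adjusted p = 0.00103). Oxsr1, a kinase gene of the WNK pathway that was singled out after its value was seen, was the gene that rose, by 0.80 (adjusted p = 0.00067).

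Genes of the sodium pump and its regulators moved in both directions. Of 9 pump and FXYD genes listed, 7 were measured, and 2 rose and 3 fell in isotype against sham kidneys (median log2 change -0.31, against 0.03 over all genes, of which 32.1% rose and 30.7% fell). Atp1b1, the beta subunit gene of the pump, averaged 3079 ± 85.9 CPM in anti-G-CSFR, 2890.0 ± 309.7 CPM in anti-C5, 1251 ± 11.1 CPM in isotype and 3499 ± 188 CPM in sham kidneys (SD, n = 3 each) and fell by 1.48 in isotype against sham kidneys (SE 0.126, edgeR adjusted p = 5.23e-06). Fxyd2, the gene of the pump's gamma subunit, fell by 0.71 (adjusted p = 0.00481), while Fxyd5 rose by 1.6 (adjusted p = 6.98e-05). Against isotype kidneys, 3 of the 7 were higher and 2 lower in each antibody group. The shares of all genes were 31.5% higher and 32% lower in anti-G-CSFR kidneys, and 30.5% higher and 29.8% lower in anti-C5 kidneys. The length-corrected ratio of Fxyd4 to Fxyd2 was 0.0374 ± 0.00257 in anti-G-CSFR, 0.0439 ± 0.00501 in anti-C5, 0.0553 ± 0.00610 in isotype and 0.0432 ± 0.00449 in sham kidneys (SD, n = 3 each; exact permutation p = 0.00955, BH-adjusted 0.0286). This call was lost without any 1 of kidneys 2, 5, 7, 8, 9 or 10 (adjusted p = 0.0538, 0.0631, 0.0582, 0.067, 0.0636 and 0.0512).

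**Figure D4:**
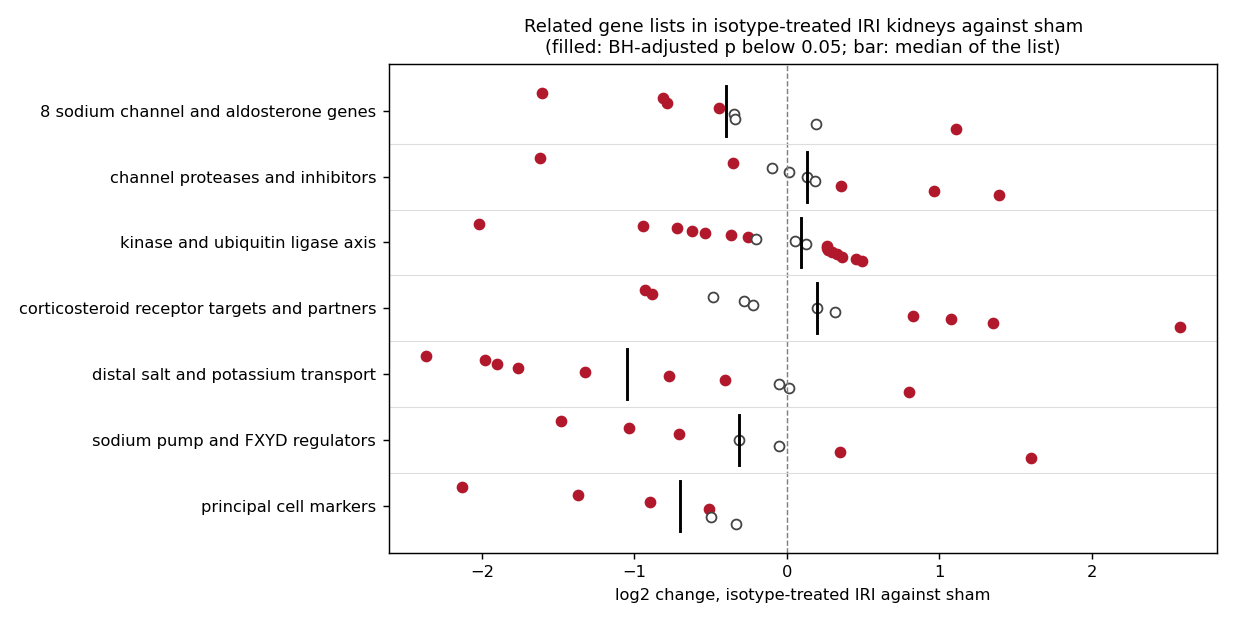
Log2 change in isotype against sham kidneys of the 8 members and of the measured genes of the protease, kinase and ligase, corticosteroid, salt and potassium transport, pump and principal cell lists, filled where the BH-adjusted p over all genes is below 0.05, with a bar at each median. The distal salt and potassium transport genes have a median of -1.05, and Prss8, Usp2 and Kcnj1 stand at -1.62, -2.02 and -1.98.

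Corticosteroid receptor targets and partners split in both directions. Of 11 genes, 4 rose and 2 fell in isotype against sham kidneys (median log2 change 0.20, against 0.03 over all genes, of which 32.1% rose and 30.7% fell). Against isotype kidneys 2 were higher and 5 lower in anti-G-CSFR kidneys (median -0.04), where 31.5% of all genes were higher and 32% lower (median -0.02). In anti-C5 kidneys 3 were higher and 3 lower (median 0.08), where 30.5% of all genes were higher and 29.8% lower (median -0.01). Edn1, the endothelin gene, whose product lowers ENaC activity in the collecting duct, averaged 1.96 ± 0.729 CPM in anti-G-CSFR, 1.89 ± 0.950 CPM in anti-C5, 8.28 ± 2.39 CPM in isotype and 1.37 ± 0.424 CPM in sham kidneys (SD, n = 3 each), and rose by 2.58 on the log2 scale in isotype against sham kidneys (SE 0.394, edgeR adjusted p = 0.000169). Dot1l, a histone methyltransferase gene linked to repression of Scnn1a, rose by 0.83 (adjusted p = 8.37e-05). Nr3c1, the glucocorticoid receptor gene, had a change of -0.28 (adjusted p = 0.0523), and Hsd11b1, whose enzyme regenerates active glucocorticoid, fell by 0.93 (adjusted p = 0.0113).

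Kidney 4 stood apart from the other isotype kidneys in Fkbp5, Per1 and Tsc22d3, genes known to respond to corticosteroid receptors. Other genes, named after their values were seen, went both ways. In kidneys 4, 5 and 6, Ndrg2 was at 40.9, 67.7 and 68.0 CPM and Klf9 at 56.7, 106.6 and 112.5 CPM, the same split. Sik1, at 74.38, 70.95 and 69.82 CPM, and Cnksr3, at 29.1, 27.8 and 26.0 CPM, did not split this way. Nr3c1 split the other way, at 105.3, 78.8 and 79.8 CPM. Kidney 4 also differed outside these genes. In kidneys 4, 5 and 6, podocyte markers summed to 446, 608 and 611 CPM and thick ascending limb markers to 3446, 5100 and 4566 CPM. Proximal tubule markers went the other way, at 1896, 1533 and 1371 CPM. How many of all genes split by kidney 4 was not counted. Fkbp5, a chaperone gene induced by glucocorticoids, was at 88.5, 103.8 and 88.8 CPM in anti-G-CSFR kidneys, 78.6, 89.6 and 101 CPM in anti-C5 kidneys, 119.7, 280.3 and 301 CPM in isotype kidneys, and 106, 92.9 and 132 CPM in sham kidneys. Per1, a clock gene that aldosterone induces, was at 18.2, 38.9 and 23.1 CPM in anti-G-CSFR kidneys, 34.7, 30.6 and 35.1 CPM in anti-C5 kidneys, 26.5, 68.7 and 79.4 CPM in isotype kidneys, and 24.7, 25.0 and 18.5 CPM in sham kidneys. For both genes kidneys 5 and 6 were far above all others, and kidney 4 was not. Tsc22d3, the gene of the leucine zipper GILZ, was at 50.5, 60.0 and 40.6 CPM in anti-G-CSFR kidneys, 52.1, 46.6 and 68.6 CPM in anti-C5 kidneys, 21.7, 64.0 and 70.1 CPM in isotype kidneys, and 41.4, 43.6 and 50.7 CPM in sham kidneys, so kidney 4 was the lowest of the 12. Fkbp5 rose by 1.08 and Per1 by 1.35 in isotype against sham kidneys (edgeR adjusted p = 0.00454 and 0.00574), and Tsc22d3 had a change of 0.20 (adjusted p = 0.618). By its injury markers kidney 4 lay far above the sham kidneys: the tubule injury genes summed to 31340 CPM there against 35790 and 37250 CPM in kidneys 5 and 6, and the neutrophil genes to 86.7 CPM against 38.03 and 105 CPM. Its principal cell markers summed to 204 CPM, against 321 and 281 CPM in kidneys 5 and 6, and what part these differences had in its levels was not tested.

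Across the 12 kidneys the members followed each other to different degrees, as Pearson's r of log2 CPM, a description of points that share groups and scaling. Scnn1g and Nr3c2 had r = 0.93, Scnn1g and Hsd11b2 r = 0.90, and Scnn1b and Scnn1g r = 0.86, while Scnn1a and Scnn1b had r = 0.62. Nedd4l ran against Fxyd4 (r = -0.73) and Hsd11b2 (r = -0.66). Of all genes in the table, those most like Hsd11b2 were Gfm2 (r = 0.997), Rtn4ip1 (0.995) and Lman2l (0.994), and those most like Scnn1g were Ankrd46 (0.985), Gpld1 (0.98) and C030037D09Rik (0.979). Nr3c2 was closest to Marchf6 (0.974), Natd1 (0.97) and Lpin1 (0.969), Scnn1b to Oat (0.943), Ptpro (0.935) and Elovl2 (0.928), and Scnn1a to Atg9a (0.968), Zer1 (0.945) and Slc43a2 (0.938). Fxyd4 was closest to Get3 (0.961), Odc1 (0.948) and Ogfod2 (0.947). Among the profiles most like Nedd4l were those of Clrn3 (0.937) and Ddx3y (0.93). Sgk1 had the least close partners, Dusp1 (0.884), Trafd1 (0.87) and Snhg11 (0.868). Dusp1, a phosphatase gene induced by stress and by glucocorticoids, was at 32.6, 35.1 and 29.0 CPM in anti-G-CSFR kidneys, 38.6, 30.5 and 34.6 CPM in anti-C5 kidneys, 29.2, 86.9 and 97.0 CPM in isotype kidneys, and 21.3, 19.4 and 24.1 CPM in sham kidneys, which sets kidney 4 apart from kidneys 5 and 6 once more.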

How the data were processed

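The deposited table holds raw counts, which the authors made per gene (Entrez identifier) from 100 bp single-end reads of strand-specific libraries, per the labels. Per the submitters' processing notes, TopHat2 2.1.0, Bowtie2 2.2.5 and featureCounts were used with build GRCm38.p4; for the strand setting and the annotation release, each is not given in the sources used here. All 12 libraries were labelled lane 8, and no batch is named. The third-highest CPM of each gene was at least 2.01, so low genes had been left out before deposit, as read from the values. Symbols (13074 of 13124 genes) came from RefSeq, and gene positions from GENCODE vM21.

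The test was edgeR 4.0.16's in R 4.3.3, run on the counts as deposited (TMM factors, robust quasi-likelihood fit over 4 groups and 12 libraries, 8 residual degrees of freedom, common coefficient of variation 16.4%), with BH adjustment over all genes. The edgeR filter removed 0 genes. Chi-square values between kidneys of 1 group, divided by their degrees of freedom, were 5.48 to 65.3, so no library was a copy of another and each counted once. CPM is given as mean ± SD, or per kidney. Standard errors were derived from each log2 change and its F statistic. Ratios of counts per kb were tested on the log2 scale by two-sided exact permutation across the 4 groups. The gene test was checked on simulated data with few genes changed, far fewer than were called in the comparisons with isotype kidneys. That check therefore does not show how the test behaves when most genes change.

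The members and gene lists were chosen with earlier results of these data known. Named were the 8 members, the 3 genes with the smallest p across groups in each of 5 pathway lists, 21 genes for their known role, and the 3 genes most correlated with each member; the text summarises some of them, and 2 are not reported here. Alternatives were library totals, upper-quartile or RLE factors, a mean CPM of at least 5, no robust option, DESeq2 1.42.0, limma-voom (limma 3.58.1), the 6 compared libraries alone, each library left out in turn, kidneys 9 and 11 left out together, and ratios of raw counts.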

Additional observations from a re-analysis of the deposited data

How the results depend on the processing

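No paired analysis was possible because kidneys were numbered 1 to 12 and no number occurs in 2 groups. Of the members' log2 changes under the alternatives, 966 kept direction and side of the threshold, 17 lost and 8 gained a call, and 17 changed sign, none of them a called change. With each library left out in turn, the members called numbered 4 to 7 of 8 in isotype against sham kidneys (54.9% to 65.2% of all genes) and across the 4 groups (48.6% to 64.1%), 4 to 6 in anti-G-CSFR (55% to 66.4%) and anti-C5 (50.6% to 63.5%) against isotype kidneys, and 0 in the other comparisons (0% of all genes). With library totals alone, the median log2 change of all genes was 0.23 in isotype against sham kidneys, -0.23 in anti-G-CSFR against isotype and -0.19 in anti-C5 against isotype kidneys, and 64.4%, 35.9% and 37.8% of called genes were higher, against 51.1%, 49.6% and 50.6% with TMM factors. There Scnn1b in isotype against sham kidneys (-0.25, edgeR adjusted p = 0.0801) and in anti-G-CSFR against isotype kidneys (0.07, adjusted p = 0.638) and Fxyd4 in anti-C5 against isotype kidneys (0.38, adjusted p = 0.0778) lost their calls, and Nedd4l in isotype against sham kidneys gained one (0.39, adjusted p = 0.0161). The sign changed with library totals for Scnn1a (-0.078) and Scnn1b (-0.013) in anti-C5 against isotype kidneys. For Hsd11b2 between anti-G-CSFR and anti-C5 kidneys the change, -0.002 with TMM factors, was 0.002 with RLE factors, with DESeq2 and with the 6 libraries alone, and 0.006 without kidneys 9 and 11, and that of Scnn1a was -0.007 without kidneys 9 and 11. With each library left out in turn, the uncalled changes that crossed 0 ran from -0.049 to 0.399 for Scnn1a in anti-G-CSFR against isotype kidneys and from -0.172 to 0.276 in anti-C5 against isotype kidneys. Between anti-G-CSFR and anti-C5 kidneys they ran from -0.091 to 0.103 for Hsd11b2, -0.005 to 0.137 for Nr3c2, -0.223 to 0.076 for Fxyd4 and -0.421 to 0.12 for Sgk1. In anti-G-CSFR against sham kidneys they ran from -0.09 to 0.004 for Scnn1g and -0.002 to 0.303 for Fxyd4. The adjusted p of the exact tests of ratios, with each library left out in turn, ran from 0.0148 to 0.0452 for Scnn1b to Scnn1g, 0.016 to 0.067 for Fxyd4 to Fxyd2, 0.0305 to 0.114 for Hsd11b2 to Nr3c2, 0.0355 to 0.316 for Sgk1 to Nedd4l, 0.0305 to 0.917 for Scnn1g to Scnn1a and 0.0535 to 0.999 for Scnn1b to Scnn1a. Without kidneys 9 and 11 that of Fxyd4 to Fxyd2 was 0.0752. The adjusted p over all alternatives in isotype against sham kidneys ran from 9.23e-14 to 0.000439 for Hsd11b2, 1e-09 to 0.000992 for Scnn1g, 4.3e-08 to 0.0016 for Nr3c2, 0.000164 to 0.0801 for Scnn1b and 0.00122 to 0.0842 for Sgk1. With 3 kidneys a group and whole-kidney RNA, small changes and changes within principal cells alone could be missed.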
